A study of Mus musculus with 6 samples.

Results

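Enzymes and transporters that carry glucose carbon through glycolysis, the pentose phosphate pathway and the tricarboxylic acid (TCA) cycle were compared between splenic T cell preparations of mice lacking miR-142 (KO) and of wild-type littermates (WT). The set was a fixed list of 45 genes, chosen by pathway and not by a cut on their values, but with earlier results of these data known. Each was read at the probe set, among those the platform annotation assigns to that gene alone, with the highest mean over all arrays. Of the 45 genes 41 were measured in this way, out of 18193 genes with such a probe set. Gpi1, Eno1 and G6pdx had no assigned probe set, and Gapdh had a probe set of its own among the array controls only. The 6 mice were males of the C57BL/6 background aged 10 weeks, 3 labelled miR-142 KO and 3 labelled WT. T cells were taken from each spleen by negative selection, which removes other cells with antibodies and leaves the wanted ones unlabelled. Their RNA was amplified and hybridized to 1-colour Affymetrix arrays, and the values are log2 intensities. How the deletion was made is not given in the sources used here.

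Glycolysis splits glucose into pyruvate, which is either reduced to lactate and exported or passed to the mitochondrial TCA cycle. The pentose phosphate pathway branches off after the first phosphorylation of glucose and yields NADPH and ribose for nucleotide synthesis. Resting T cells take up little glucose, and activated or dividing T cells raise uptake and glycolysis. Many steps have several isoenzymes, which are used to different extents by lymphoid, myeloid, erythroid and muscle cells.

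The mature strands made from the deleted gene are shown to state what the KO mice lack, with the seed, bases 2 to 8, in capitals. They were taken from RefSeq with GRCm38.p6 coordinates, and the arrays did not measure them.
miR-142a-5p, chr11:87756867-87756887, plus strand: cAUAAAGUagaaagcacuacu
miR-142a-3p, chr11:87756903-87756925, plus strand: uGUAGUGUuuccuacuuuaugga

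Proximal promoters are shown for the glucose transporter Slc2a1, whose level fell, and for Hk2, Hk3 and Slc16a1, whose levels rose, as examples of members that moved in opposite directions. Each is the 250 bases before the RefSeq start (GRCm38.p6), and the capitals mark ACGTG, the core of the hypoxia response element, or its reverse complement CACGT.
Slc2a1, chr4:119108495-119108744, plus strand: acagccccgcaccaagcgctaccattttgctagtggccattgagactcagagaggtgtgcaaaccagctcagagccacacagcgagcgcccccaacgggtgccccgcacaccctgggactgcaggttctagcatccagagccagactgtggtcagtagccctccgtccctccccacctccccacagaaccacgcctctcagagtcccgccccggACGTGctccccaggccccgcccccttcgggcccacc
Hk2, chr6:82774455-82774704, minus strand: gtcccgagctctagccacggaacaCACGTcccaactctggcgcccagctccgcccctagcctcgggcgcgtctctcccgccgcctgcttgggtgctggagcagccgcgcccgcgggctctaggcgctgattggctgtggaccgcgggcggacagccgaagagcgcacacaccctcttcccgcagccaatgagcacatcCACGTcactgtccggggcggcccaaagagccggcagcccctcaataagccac
Hk3, chr13:55021386-55021635, minus strand: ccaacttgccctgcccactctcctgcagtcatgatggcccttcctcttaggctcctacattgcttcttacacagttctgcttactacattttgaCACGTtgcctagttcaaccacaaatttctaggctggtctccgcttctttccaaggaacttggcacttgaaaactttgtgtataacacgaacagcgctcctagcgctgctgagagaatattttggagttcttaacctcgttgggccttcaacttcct
Slc16a1, chr3:104638414-104638663, plus strand: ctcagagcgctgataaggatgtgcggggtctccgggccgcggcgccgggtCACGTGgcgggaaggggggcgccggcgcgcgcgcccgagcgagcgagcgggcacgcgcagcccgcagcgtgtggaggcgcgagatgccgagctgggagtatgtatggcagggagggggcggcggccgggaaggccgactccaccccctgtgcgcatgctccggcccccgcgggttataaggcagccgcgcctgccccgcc
RefSeq promoters matched 43 of the 45 members. ACGTG on either strand occurred upstream of 16 of these 43 genes, in 24 of their 64 windows (37.5%), against 16.6% of all 32851 windows of the same length. It was found for 8 of 20 members that rose, 1 of 5 that fell and 7 of 14 not called. Several of the 24 windows are overlapping or neighbouring starts of Ogdh. Every CACGTG, the E-box, holds the core on both strands, and it occurred in 12.5% of the members' windows and 6.02% of all. The members' windows differed in other motifs too. The GC box GGGCGG occurred in 59.4% of them and 32.7% of all, and the TATA box TATAAA in 0% and 12.4%. The Slc16a1 window holds an E-box, while Hk2 has a pair of separate cores and Hk3 and Slc2a1 have 1 each. These matches describe letters in a window and were not tested for binding.

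Of the 41 measured members 21 rose and 5 fell in KO. A call needs a limma p below 0.05 after Benjamini-Hochberg adjustment across the 45037 probe sets tested. Among all 18193 genes, 18.6% rose and 18.6% fell by the same rule, 37.2% in either direction. Among genes above the median level, where 39 of the 41 members lie, 26.8% rose and 26.0% fell. The members' median log2 difference was 0.37, against -0.06 for all genes. All KO arrays lay above all WT arrays for 28 members and below them for 6, while the same was true of 24.1% and 29.7% of all genes. Hk3, Idh1 and Hk2 rose most, and Slc2a1, Pdk1 and Pfkp fell most. The pentose phosphate members rose for 5 of 6, with 0 that fell.

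**Figure D1:**
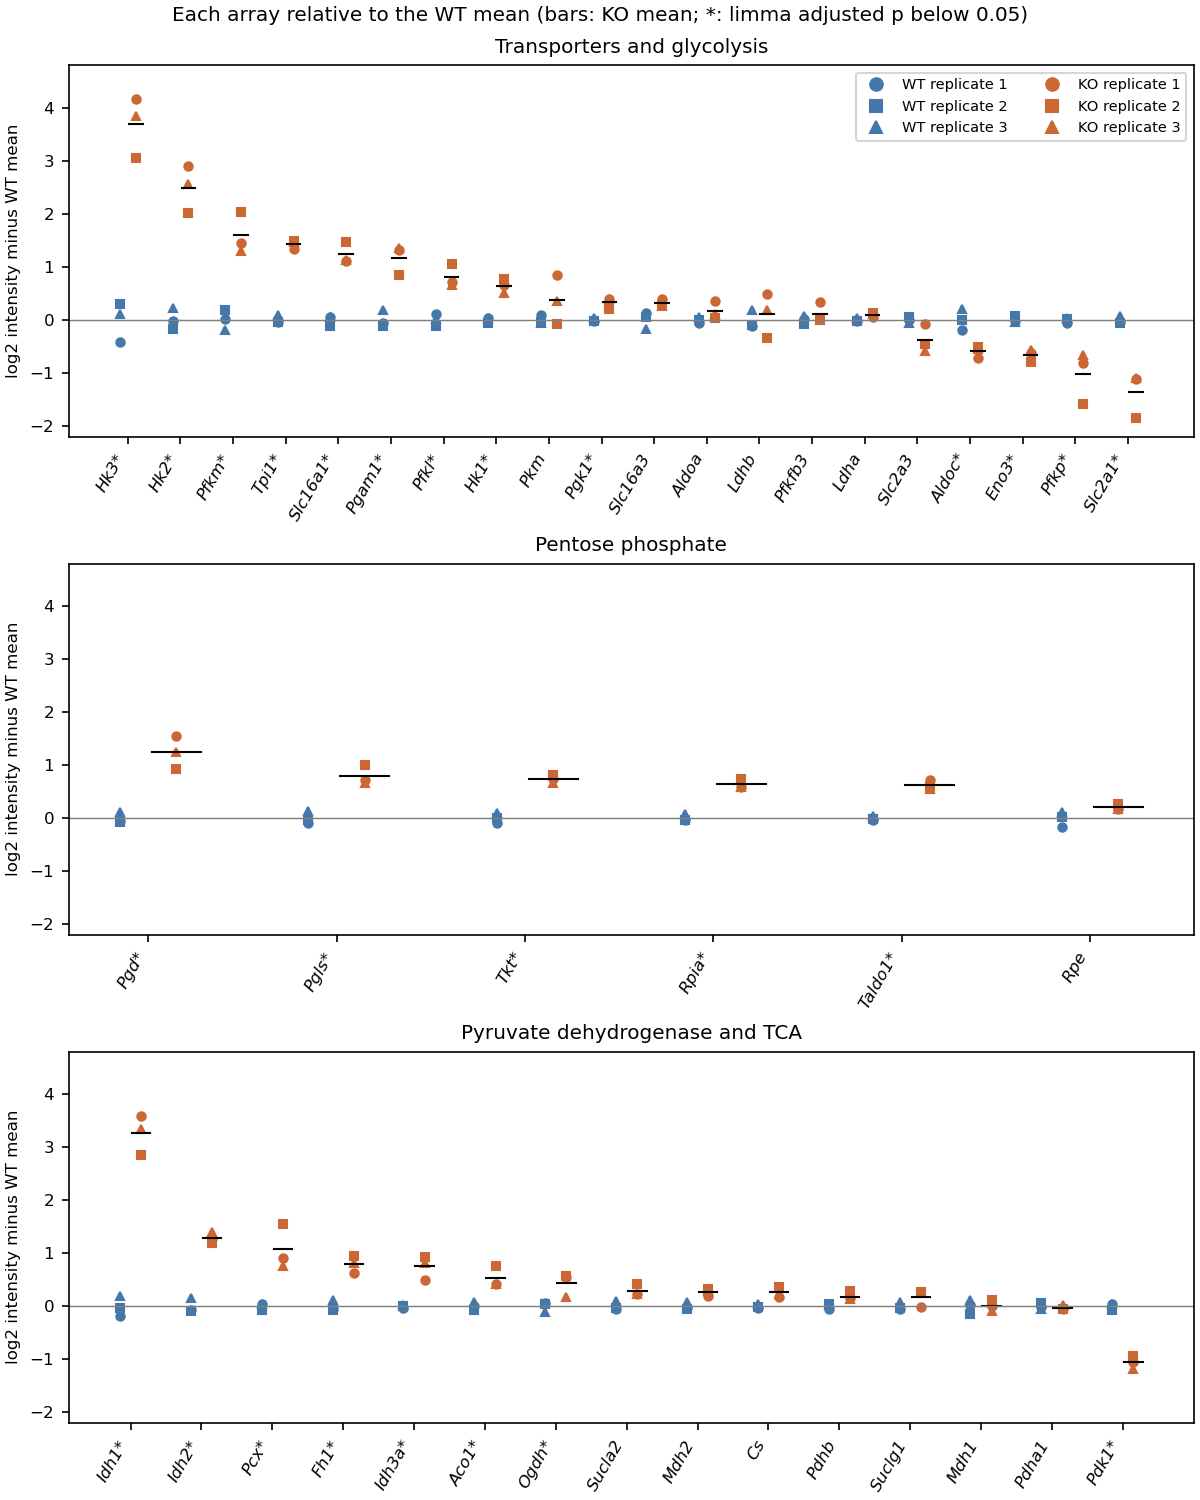
Log2 intensity of each array minus the WT mean of the same probe set (vertical axis) for the 41 measured members, in 3 panels by pathway and sorted by difference. Blue symbols are WT arrays, orange symbols KO arrays, the symbol shape gives the replicate number, black bars are KO means, and asterisks mark members with a limma adjusted p below 0.05. All 6 pentose phosphate members have their KO arrays above their WT arrays, while the other panels hold members on both sides of 0.

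**Figure D2:**
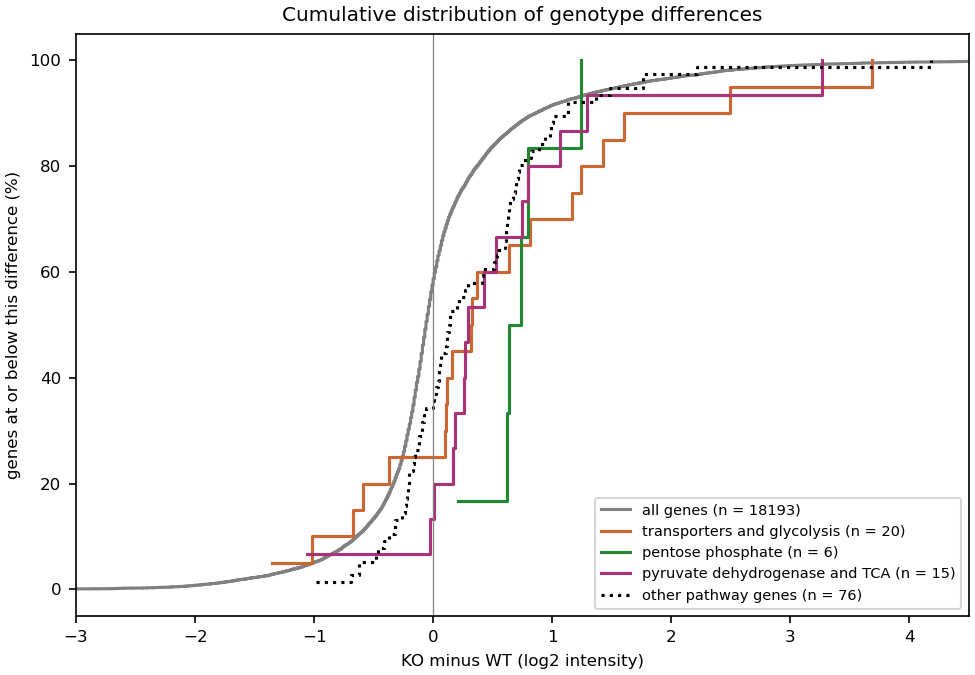
Cumulative share of genes (vertical axis, percent) at or below a given KO minus WT log2 difference (horizontal axis) for all 18193 genes, the 3 member pathways and 76 other genes of the same pathways. The member curves lie to the right of the grey curve of all genes over most of their length, and the glycolysis curve crosses it at its low end, where Slc2a1 and Pfkp lie.

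The labels and the cell makeup of the preparations bear on every value. The transcript listed as Mir142 fell from 7.91 ± 0.23 (SD, n = 3) in WT to 5.92 ± 0.05 in KO. All 17 measured T cell markers fell, and their mean level was 12.17 to 12.18 in WT arrays and 9.44 to 10.72 in KO arrays. Markers that rose were 10 of 12 for neutrophils (mean level 6.09 to 7.18 in WT and 10.23 to 12.77 in KO), 12 of 14 for mast cells, basophils and eosinophils (5.72 to 5.82 and 9.32 to 9.80), 10 of 17 for monocytes and macrophages (5.84 to 6.21 and 8.0 to 8.64) and 11 of 12 for erythroid cells (7.38 to 7.71 and 9.67 to 10.63). Smaller counts rose for dendritic cells (6 of 11) and for megakaryocytes and platelets (6 of 9, with 1 that fell). For B cells 2 of 13 rose (15.4%), and for plasma cells 2 of 7 (28.6%), with 1 that fell. Of all genes 18.6% rose, and of those above the median level 26.8%. The B cell share lay below both, and the plasma cell share was near the latter. The mean level of the B cell list was still higher in each KO array, at 6.49 to 6.95 in WT and 7.03 to 8.45 in KO. KO replicate 2 had the highest mean, and single markers differed there. Ebf1 at 11.22 and Vpreb3 at 12.12 were the highest of the KO arrays, while Ms4a1 at 5.89 and Blk at 5.58 were the lowest. Of 9 NK cell markers 5 fell and 1 rose. All 10 progenitor markers rose, some of which also stand in the mast cell and dendritic cell lists. All 15 measured genes of dividing cells rose too, from 9.18 to 9.31 in WT to 11.09 to 11.55 in KO. The part of these shifts in the enzyme results was not tested, and in bulk samples fewer cells of a type and less RNA per cell cannot be told apart. Signs of RNA quality moved with genotype as well. The 18S ribosomal controls were at 9.47 to 9.66 in WT and at 7.86, 9.15 and 9.19 in KO, with KO replicate 1 apart. The 3' minus 5' difference of the control probe sets was 0.16 to 0.23 in WT and 0.32 to 0.40 in KO for Actb, and -0.18 to -0.15 and -0.10 to 0.18 for Gapdh, without overlap. Their part in the enzyme results was not tested. Against the bacterial hybridization controls, which were added at fixed amounts, the whole KO data lie higher. Scaling to them shifts every difference by 0.37, from a median of -0.08 to 0.29 over all probe sets, and then 34 members rose and 2 fell. The shares of all genes that rose and fell under this scaling were not computed, so these counts have no background.

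**Figure D3:**
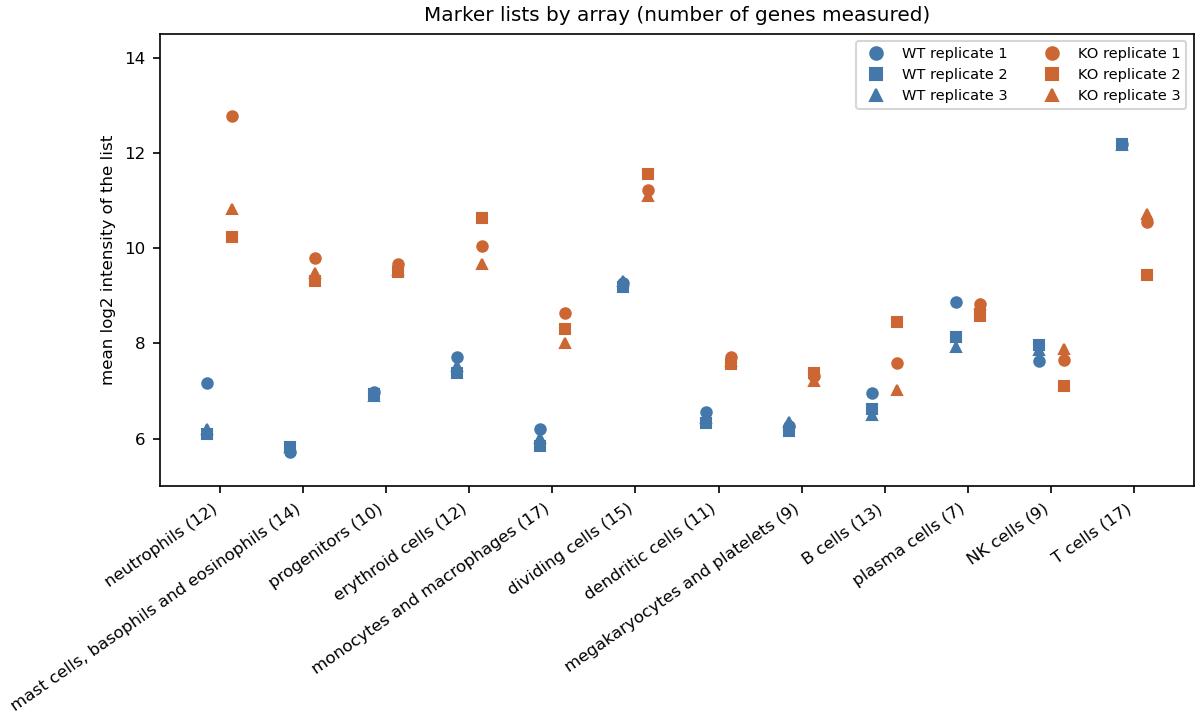
Mean log2 intensity of each marker list (vertical axis) in each array, with the number of measured genes in brackets and lists sorted by KO minus WT. Blue symbols are WT arrays and orange symbols KO arrays. The T cell list is the lowest in KO relative to WT, and KO replicate 1 has the highest neutrophil mean, 12.77.

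Of the 4 transporter members 1 fell, the glucose transporter Slc2a1, and 1 rose, the lactate carrier Slc16a1, while Slc2a3 and Slc16a3 were not called. Slc2a1, the ubiquitous glucose transporter GLUT1, had levels of 10.34, 10.33 and 10.46 in the WT arrays and 9.26, 8.53 and 9.28 in the KO arrays. Every KO array was below every WT array, with KO replicate 2 the lowest. The fall was 2.56-fold (log2 difference -1.35 ± 0.20 SE, limma adjusted p = 0.0022), and all 3 probe sets of the gene fell. Slc2a3, the high-affinity neuronal and leukocyte transporter GLUT3, was at 11.21, 11.27 and 11.16 in WT and 11.14, 10.77 and 10.64 in KO. Its KO arrays also lay below the WT arrays, but the difference of -0.37 ± 0.14 did not pass (limma adjusted p = 0.087), and it was called without KO replicate 1 (-0.51, limma adjusted p = 0.013). Its design allows cross-hybridisation. Among the 3 further probe sets of Slc2a3 the brightest differed by -0.42 and the dim ones by 0.04 each, and scaling to the hybridization controls left no difference. Slc16a1, the proton-coupled lactate and pyruvate carrier MCT1, rose from 10.96, 10.78 and 10.96 to 12.01, 12.37 and 12.03. That rise was 2.36-fold (limma adjusted p = 0.00036), with the groups well apart. The dimmer probe set of Slc16a1 differed by 0.30 (limma adjusted p = 0.14), and there the groups overlapped. The lactate exporter Slc16a3 was dim at 3.82 to 4.13 in WT and 4.27 to 4.40 in KO (limma adjusted p = 0.060). Bsg, the chaperone that brings these carriers to the cell surface and no member of the set, rose by 1.13 (limma adjusted p = 0.00067), and was named after its values were seen. So were Slc2a6 and Slc2a8, further members of the glucose transporter family outside the set, which rose by 0.99 (limma adjusted p = 0.0019) and 0.65 (limma adjusted p = 0.032). Also listed outside the set, Slc2a9 of that family fell by 0.48 (limma adjusted p = 0.018), and Slc2a4 (0.05) and Slc2a12 (-0.09) were not called. Slc2a4 and Slc2a12 too were named after their values were seen.

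The 3 hexokinases of the set, which trap glucose as its phosphate, all rose. The related gene Hkdc1, outside the set and named after its values were seen, was not called (0.27, limma adjusted p = 0.12). Hk3, an isoform known from myeloid cells, was at 6.37, 7.08 and 6.89 in WT and 10.94, 9.84 and 10.63 in KO, a 12.9-fold rise (limma adjusted p = 0.00016). Its second probe set rose by 2.72, less than the 3.69 of the brighter, whose design can cross-hybridise with related genes. Hk2, the isoform that growth signals induce, was at 7.07, 6.92 and 7.33 in WT and 10.00, 9.12 and 9.67 in KO. It rose 5.63-fold (limma adjusted p = 0.00024). For both, KO replicate 1 was the highest KO array and KO replicate 2 the lowest, an order shared by the means of 5 marker lists, those of neutrophils, of mast cells, basophils and eosinophils, of dendritic cells, of plasma cells and of progenitors. For plasma cells, KO replicates 1 and 3 were both at 8.83 after rounding. Hk1, the housekeeping isoform, rose by less, from 10.59, 10.50 and 10.59 to 11.21, 11.34 and 11.06 (1.56-fold, limma adjusted p = 0.0026). The dimmer probe set of Hk1 differed by 0.49 and was not called (limma adjusted p = 0.074).

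Of the 3 isoforms of phosphofructokinase, the committed step of glycolysis, Pfkm and Pfkl rose and Pfkp fell. Pfkm, the muscle isoform, rose from 7.76, 7.92 and 7.54 to 9.19, 9.78 and 9.03 (3.02-fold, limma adjusted p = 0.0011). Pfkl, the liver isoform, rose from 7.97, 7.74 and 7.87 to 8.58, 8.92 and 8.52 (1.76-fold, limma adjusted p = 0.0029), and KO replicate 2 was the highest KO array for both. The dimmest of the 3 probe sets of Pfkl differed by -0.47 (limma adjusted p = 0.052). Pfkp, the platelet isoform, went the other way, from 10.68, 10.76 and 10.77 to 9.92, 9.16 and 10.08. It fell 2.02-fold (limma adjusted p = 0.013), with KO replicate 2 the lowest. Its 2 dimmer probe sets did not pass, at -0.45 and -0.40, and neither did the mean of its probe sets, at -0.62 (limma adjusted p = 0.061). Pfkfb3, which makes the activator of phosphofructokinase, was not called at its brighter probe set (0.11 ± 0.11, limma adjusted p = 0.50) and fell at the dimmer (-0.39, limma adjusted p = 0.036).

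**Figure D4:**
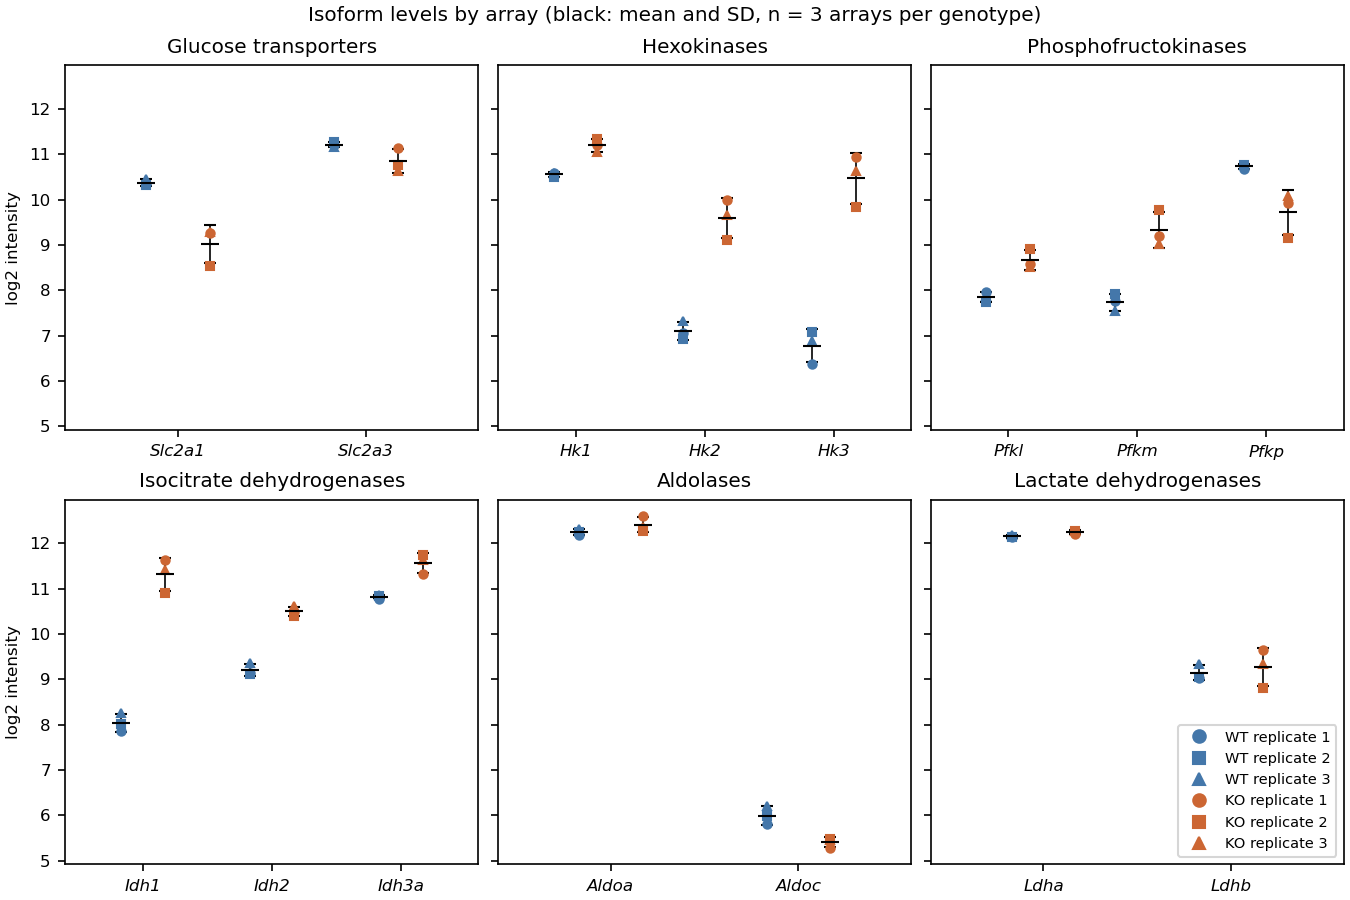
Log2 intensity (vertical axis) of members of 6 isoform families in each array, with black bars for the mean and SD of 3 arrays per genotype. Blue symbols are WT arrays and orange symbols KO arrays. Distances between genes depend on their probe sets and are not comparable. The change from blue to orange is free of that offset, but its size also differs between probe sets of a gene, as for Hk3 (3.69 and 2.72). At the probe sets shown, Hk2 and Hk3 move further than Hk1, and Pfkp moves down where Pfkl and Pfkm move up.

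The splitting of the hexose and the interconversion of its products held 1 large rise, that of Tpi1. Tpi1, triose phosphate isomerase, was at 10.66, 10.66 and 10.79 in WT and 12.03, 12.19 and 12.17 in KO. It rose 2.69-fold (limma adjusted p = 6.3e-05), with narrow spreads of 0.07 and 0.09 (SD, n = 3), and its 3 probe sets rose by 1.40 to 1.53. Aldoa, the main aldolase, was not called (0.16 ± 0.11, limma adjusted p = 0.31), at levels of 12.19 to 12.31 in WT and 12.28 to 12.60 in KO. Aldoc, the brain aldolase, was dim at 5.80 to 6.20 in WT and fell by 0.59 (limma adjusted p = 0.0097), a call lost under scaling to the hybridization controls, at -0.22. Its dimmer probe set differed by -0.12 (limma adjusted p = 0.38).

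In the lower part of glycolysis, of the 6 members tested 2 rose (Pgk1 and Pgam1), Eno3 fell, and Pkm, Ldha and Ldhb were not called. Pgam1, phosphoglycerate mutase, rose from 10.13, 10.07 and 10.37 to 11.50, 11.03 and 11.54 (2.25-fold, limma adjusted p = 0.0014). Pgk1, phosphoglycerate kinase, rose by 0.33 ± 0.09 (limma adjusted p = 0.027). This small rise was lost without any array other than KO replicate 2, with limma adjusted p from 0.053 to 0.090. Gapdh, read at its control probe sets, was at 12.86, 12.90 and 12.82 in WT and 13.55, 13.46 and 13.44 in KO at the probe set near the 3' end. When the control probe sets were added to the fit, its 3 probe sets rose by 0.46 to 0.63 (limma adjusted p = 0.0012 at the 3' end). Eno3, the muscle enolase, fell from 8.77, 8.88 and 8.76 to 8.17, 8.0 and 8.23 (1.59-fold, limma adjusted p = 0.0017). Under scaling to the hybridization controls the Eno3 difference was -0.31 and no longer called. Pkm, pyruvate kinase, was at 10.52, 10.38 and 10.37 in WT and spread over 11.26, 10.35 and 10.77 in KO. The groups overlapped through KO replicate 2, and the difference of 0.37 ± 0.21 did not pass (limma adjusted p = 0.24). Without that array Pkm rose by 0.59 (limma adjusted p = 0.024). Ldha, the lactate dehydrogenase chain of highly glycolytic cells, lay at 12.13 to 12.19 in WT and 12.21 to 12.28 in KO (0.10 ± 0.08, limma adjusted p = 0.39). Ldhb, the chain of oxidative tissues, differed by 0.12 ± 0.21 (limma adjusted p = 0.72), its KO arrays running from 8.81 in replicate 2 to 9.64 in replicate 1.

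Of the 6 measured pentose phosphate members 5 rose and Rpe was not called. In the oxidative branch, which makes NADPH, Pgd, phosphogluconate dehydrogenase, rose from 11.02, 10.99 and 11.19 to 12.61, 11.99 and 12.32. This was 2.36-fold (limma adjusted p = 0.0012), and its 4 probe sets rose by 1.13 to 1.65. Pgls, the lactonase one step earlier, rose from 10.53, 10.59 and 10.77 to 11.35, 11.64 and 11.29 (1.74-fold, limma adjusted p = 0.0024). In the branch that rearranges sugars, the transketolase Tkt rose from 12.96, 13.06 and 13.16 to 13.80, 13.87 and 13.73 (1.67-fold, limma adjusted p = 0.00097). This probe set can cross-hybridise, and the other probe sets of Tkt rose by 0.56 and 1.14. The transaldolase Taldo1 rose by 0.62 ± 0.09 (limma adjusted p = 0.0016). Rpia, which makes ribose phosphate, rose by 0.64 ± 0.09 (limma adjusted p = 0.0016). The epimerase Rpe was not called at its brightest probe set (0.21 ± 0.10, limma adjusted p = 0.16), but the next of its 3 rose by 0.56 (limma adjusted p = 0.012). The counts of 5 that rose and 0 that fell were the same without each array in turn.

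At the entry of pyruvate into mitochondria, Pdk1 fell, and Pdha1 and Pdhb were not called at their brightest probe sets. Pdk1, one of the kinases that switch off pyruvate dehydrogenase, was at 12.05, 11.92 and 12.05 in WT and 10.94, 11.07 and 10.82 in KO. It fell 2.08-fold (limma adjusted p = 0.00027), all its 4 probe sets fell, by 1.06 to 1.64, and KO arrays were below WT arrays in each. Another such kinase outside the set, Pdk3, went the other way, from 8.61, 8.72 and 8.94 to 9.51, 9.75 and 9.45 (1.76-fold, limma adjusted p = 0.0024), and Pdk2 (-0.12) and Pdk4 (0.13) were not called. Pdha1, the catalytic chain, differed by -0.03 ± 0.08 (limma adjusted p = 0.84). Its partner chain Pdhb differed by 0.18 ± 0.09 (limma adjusted p = 0.16), and its dimmer probe set rose by 0.96 (limma adjusted p = 0.0025). Of the other components of that complex, Dlat rose by 1.01, Dld by 0.71 and Pdhx by 0.69. Pdk2, Pdk3, Pdk4, Dld and Pdhx were named after their values were seen. Pcx, pyruvate carboxylase, which refills the cycle, rose from 6.65, 6.53 and 6.66 to 7.52, 8.16 and 7.37 (limma adjusted p = 0.0057). Of its 4 control probe sets only the 3' one rose in the fit that included controls, by 0.69, and the others differed by -0.03 to 0.06. Slc2a1 and Pdk1 were the 2 members that fell under scaling to the hybridization controls as well.

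Within the TCA cycle and its cytosolic counterparts the 3 isocitrate dehydrogenase members of the set all rose. Idh1, the cytosolic NADPH-producing enzyme, was at 7.86, 8.02 and 8.25 in WT and 11.63, 10.91 and 11.40 in KO. It rose 9.62-fold (limma adjusted p = 5.3e-05), its other probe set rose by 3.46, and KO replicate 1 was again the highest and KO replicate 2 the lowest. Both probe sets of Idh1 can cross-hybridise with related genes. Idh2, its mitochondrial relative, rose from 9.14, 9.12 and 9.37 to 10.48, 10.40 and 10.61 (2.44-fold, limma adjusted p = 0.00017), and its dimmer probe set differed by -0.05. Idh3a, the catalytic chain of the NAD-linked cycle enzyme, rose from 10.78, 10.83 and 10.85 to 11.32, 11.75 and 11.64 (1.68-fold, limma adjusted p = 0.0036), and its 4 probe sets all rose. The other chains of that enzyme lie outside the set and were named after their values were seen. Of them Idh3g rose by 0.29 (limma adjusted p = 0.035), and Idh3b was not called (-0.09, limma adjusted p = 0.54). Fh1, fumarase, rose from 10.56, 10.54 and 10.72 to 11.24, 11.56 and 11.43 (1.75-fold, limma adjusted p = 0.0016). Aco1, the cytosolic aconitase that doubles as an iron sensor, rose by 0.53 ± 0.12 (limma adjusted p = 0.015), a call lost without WT replicate 1 or 2. Ogdh, a chain of oxoglutarate dehydrogenase, rose by 0.43 ± 0.13 (limma adjusted p = 0.037), a call lost without any array other than KO replicate 3.

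The remaining cycle members lay within small distances of WT. Citrate synthase, Cs, differed by 0.26 ± 0.09 (limma adjusted p = 0.062), the succinate ligase chain Sucla2 by 0.29 ± 0.10 (limma adjusted p = 0.056) and the mitochondrial malate dehydrogenase Mdh2 by 0.27 ± 0.09 (limma adjusted p = 0.052). For these 3 the genotypes did not overlap, with KO the higher. Another probe set of Cs rose by 0.45 (limma adjusted p = 0.007), and a further one differed by 0.27 (limma adjusted p = 0.12). The dimmer probe set of Mdh2 rose by 0.36 (limma adjusted p = 0.02). Suclg1, the shared succinate ligase chain, differed by 0.17 ± 0.10 (limma adjusted p = 0.27). Mdh1, the cytosolic malate dehydrogenase, differed by 0.01 ± 0.10 (limma adjusted p = 0.93), while of its 4 other probe sets 1 fell, by 0.89. In all, 7 of these 15 pyruvate and cycle members rose, 1 fell and 7 were not called.

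Differences between isoforms were then taken within each array, so that the fixed brightness of each probe set cancels in the KO minus WT shift of the difference. The differences themselves are not ratios of the genes' levels, and only shifts are given. The size of a shift still depends on the probe sets read. Of 15 measured pairs, 13 had KO and WT arrays that did not overlap, each with an exact two-sided permutation p = 0.10, the smallest that 3 arrays against 3 can give, and 0.12 after Benjamini-Hochberg adjustment over the 15. No pair can therefore pass a threshold of 0.05. Among all single genes, KO arrays lay wholly above WT arrays for 24.1% and wholly below for 29.7%. The share of other gene pairs without overlap was not computed, so the count of 13 has no background of its own. Pfkm minus Pfkp shifted by 2.61, with an SD over arrays of 0.21 in WT and 0.88 in KO, and by 2.11 without KO replicate 2. Hk1 minus Hk3 shifted by -3.05 and Hk1 minus Hk2 by -1.85. Hk2 and Hk3 both rose, and Hk2 minus Hk3 shifted by -1.19. Idh1 minus Idh2 shifted by 1.98. Slc2a1 minus Slc2a3 shifted by -0.99, and Slc16a1 minus Slc16a3 by 0.92. The overlapping pairs were Ldha minus Ldhb, with a shift of -0.02 (exact permutation p = 1.0), and Suclg1 minus Sucla2, with -0.12 (exact permutation p = 0.40).

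KO arrays differed among themselves more than WT arrays did. The range over the 3 arrays was wider in KO than in WT for 33 of 41 members, with a median of 0.32 against 0.16. The order of the KO arrays took a few forms. Hk2, Hk3, Pgd, Idh1, Aldoa, Pkm and Ldhb ran from replicate 1 through 3 down to 2, as did the marker means of neutrophils (12.77, 10.83 and 10.23) and of the 4 other lists named beside Hk2 and Hk3. Another 14 members, among them Pfkm, Pfkl, Hk1 and Pcx, ran from replicate 2 through 1 to 3, as did the means of erythroid markers (10.63, 10.05 and 9.67), dividing cells (11.55, 11.22 and 11.09), B cells and megakaryocytes. Slc2a1, Pfkp, Eno3, Pgk1, Pgam1, Pdha1 and Idh2 ran from replicate 3 through 1 to 2, as did the T cell markers (10.72, 10.54 and 9.44) and the NK cell markers. Tpi1, Slc16a1, Fh1, Idh3a, Aldoc, Ldha, Cs, Suclg1 and Mdh2 ran from replicate 2 through 3 to 1, an order that none of the 12 marker lists had. Slc2a3, Pfkfb3, Slc16a3 and Taldo1 ran from 1 through 2 to 3, as did the monocyte and macrophage markers. These orders describe 3 arrays, were not tested, and for members and marker lists with a narrow range rest on small differences. The KO means of dendritic cell markers, for example, were 7.72, 7.56 and 7.64 in replicates 1, 2 and 3.

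Other genes of the same pathways, listed by function, rose for 32 (42.1%) and fell for 9 (11.8%) of 76 measured. Their median difference was 0.14. Of all genes 18.6% rose and 18.6% fell, and of those above the median level 26.8% and 26.0%. Among 33 further genes of glucose uptake, glycolysis and glycogen, 14 rose (42.4%) and 4 fell (12.1%). The liver-type glycogen phosphorylase Pygl rose from 6.30, 5.79 and 6.41 to 11.27, 9.83 and 9.95 (18.2-fold, limma adjusted p = 0.00025). The gluconeogenic phosphatase Fbp1 rose by 2.22, the monocarboxylate carrier Slc16a7 by 1.76 and Pklr, the liver and red cell pyruvate kinase, by 1.49. Tigar, a phosphatase that lowers glycolytic flux, fell by 0.98, the brain-type phosphorylase Pygb by 0.62, the urate and glucose transporter Slc2a9 by 0.48 and Bpgm, which makes the red cell metabolite bisphosphoglycerate, by 0.46. Of 8 further pentose phosphate genes 3 rose (37.5%), namely H6pd by 0.67, Rbks by 0.64 and Prps1 by 0.41. The ribose phosphate pyrophosphokinase Prps2 fell by 0.62.

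Among 35 further genes of pyruvate entry, the cycle and the mitochondrial shuttles, 15 rose (42.9%) and 4 fell (11.4%). The mitochondrial carboxykinase Pck2 rose from 8.98, 8.93 and 9.04 to 10.56, 11.11 and 10.55 (3.39-fold, limma adjusted p = 0.00025). The aspartate and glutamate carrier Slc25a13 rose by 1.37, the citrate carrier Slc25a1 by 1.13 and Dlat, the acetyltransferase core of pyruvate dehydrogenase, by 1.01. D2hgdh, which clears hydroxyglutarate, fell by 0.69, and Pdp1, the phosphatase that reactivates pyruvate dehydrogenase, fell by 0.41. The regulatory subunit of that phosphatase, Pdpr, fell by 0.37 and the citrate synthase-like gene Csl by 0.32. Under scaling to the hybridization controls, which shifts every difference up, 0 of the 76 genes fell. No share of all genes was computed for that scaling.

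Of 27 regulators of glucose metabolism 5 rose (18.5%, against 18.6% of all genes) and 8 fell (29.6%, against 18.6%). Most of the regulators lie above the median level, where 26.8% of genes rose and 26.0% fell. The share that rose was thus no higher than the background, and the share that fell was near that of the brighter genes. Txnip, which restrains glucose uptake and is itself induced by glucose, fell from 12.07, 12.16 and 12.02 to 10.55, 10.29 and 10.78 (2.92-fold, limma adjusted p = 0.00020). Egln3 and Egln1, oxygen-sensing hydroxylases that mark HIF proteins for destruction, differed in direction. Egln3 rose from 6.48, 6.63 and 7.62 to 8.92, 8.50 and 8.86 (3.59-fold, limma adjusted p = 0.0030), and Egln1 fell by 0.81 (limma adjusted p = 0.00059). The HIF family member Epas1 fell by 0.48, and Mlx, the partner of the carbohydrate-sensing factors, by 0.60. Hif1a fell as well, by 0.42 (limma adjusted p = 0.015), and so did the hydroxylase Egln2, by 0.28 (limma adjusted p = 0.045). Hif1a and Egln2 were named after their values were seen. Mxi1, an antagonist of MYC, rose by 0.99, Tsc2, an inhibitor of mTOR signalling, by 0.48 and the kinase Stk11, which activates AMP kinase, by 0.38. Omission of single arrays left 2 to 7 regulators that rose and 4 to 6 that fell, with the fewest that rose without WT replicate 1 and the fewest that fell without WT replicate 2. Under scaling to the hybridization controls 12 regulators rose and 2 fell, counts without a matching share of all genes.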

How the data were processed

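The values deposited by the authors were log2 intensities per probe set, which came from RMA per the submitters' processing notes (version not given in the sources used here), for 1-colour Affymetrix arrays. RMA background-corrects, quantile-normalizes and summarizes, so a global shift between genotypes is removed, and differences of dim probe sets are understated. Per the labels, each array is 1 spleen, so replicates are separate animals, and groups follow the labelled genotype. Array medians were 5.70 to 5.77. The number of arrays limits the precision.

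The 64 array controls were left out and 45037 probe sets tested as deposited with limma 3.58.1 in R 4.3.3 (lmFit, eBayes, genotype as the term, two-sided). Benjamini-Hochberg adjustment ran across all of them, and a call needed an adjusted p below 0.05. Rose and fell stand for such calls, differences are KO minus WT with the moderated SE, and levels carry the SD. The annotation gave 1 gene for 34945 probe sets, several for 932 and did not list 9160. Each gene was read at its brightest probe set. Isoform differences within arrays were tested by exact permutation. The limma step was tested on simulated data.

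Members, lists, pairs and alternatives were chosen with earlier results of these data known. All members are named. Of other pathway genes, up to 4 per list and direction with the largest called differences are named, and those said to be named after their values were seen are outside this rule. Alternatives were other scalings, a filter on dim probe sets, trend with robust fitting, array weights, a replicate block, other thresholds, each array left out, the mean of probe sets and other probe sets. Including the array controls was chosen after seeing the data. WT and KO samples of the same number deviated from their group means with correlations of 0.10, -0.24 and -0.20, so the numbers were not treated as pairs. No column of sample values was left unused.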

Additional observations from a re-analysis of the deposited data

How the results depend on the processing

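Of the 26 called members, 20 kept their call and direction under all 17 settings run on each, other probe sets aside. The exceptions were Aco1, Aldoc, Eno3, Ogdh, Pfkp and Pgk1. Leaving out each array in turn gave 18 to 21 members that rose, 5 to 6 that fell, and 5 to 8 other pathway genes that fell. With a replicate block 20 members rose and 5 fell, Pgk1 lost its call (limma adjusted p = 0.071), and 4 regulators fell in place of 8.

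Scaling to the hybridization controls gave a median difference of the members of 0.73, 14 that rose and 1 that fell in glycolysis and transport, 14 that rose in the pyruvate and TCA group, 34 and 2 in all, and 0 other pathway genes that fell. This scaling raises every difference by 0.37, and the matching shares of all genes were not computed. With a minimum of 1.5-fold 4 other pathway genes fell.

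Differences whose sign turned were small or rested on another probe set. Pdha1 was at 0.34 under hybridization-control scaling. With the mean of probe sets Mdh1 was at -0.23, Pfkfb3 at -0.14, Idh2 minus Idh3a at -0.14 and Suclg1 minus Sucla2 at 0.07. Mdh1 was at -0.05 after repeated quantile normalization. Without 1 array Mdh1 ranged from -0.06 to 0.08, Ldhb from -0.08 to 0.34 and Ldha minus Ldhb from -0.26 to 0.20. Other probe sets stood at -0.04 for Aco1, -0.14 for Aldoa, -0.05 for Idh2, -0.89, -0.21 and -0.07 for Mdh1, -0.23 for Ogdh, -0.39 for Pfkfb3, -0.47 for Pfkl, -0.10 for Rpe, 0.04 for each of 2 of Slc2a3 and -0.02 for Sucla2. Beyond the probe set read, the cause was not tested. RMA values carry no detection calls, so a limit of signal over background could not be set.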
